A study of Mus musculus with 28 samples.

Results

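Interferon-stimulated genes are transcribed when a cell senses interferon or foreign nucleic acid, and 37 of them, set by name and not by any measured value, are described here across 19 RNA-seq libraries of mouse lung EPCAM+ cells. All 37 had a row in both count tables, among 23478 gene rows in each. By role they fall into 4 transcription factors, 5 RNA sensors, 10 direct antiviral effectors, 5 members of the oligoadenylate synthetase family, 6 genes of ubiquitin, ISG15 and ADP-ribosylation, 3 genes of peptide generation and transport, and 4 other induced genes.

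Type I and type III interferons activate a complex that holds STAT2 and IRF9 and binds DNA at the interferon-stimulated response element, while interferon gamma acts through the gamma-activated site. Many induced genes answer to both routes. Irf1, the immunoproteasome genes Psmb8 and Psmb9, the peptide transporter Tap1 and the guanylate-binding proteins are textbook targets of interferon gamma, while Ifit1, Ifit3, Rsad2 and Isg15 are textbook targets of type I interferon. In the lung, alveolar type 2 (AT2) cells make surfactant and also answer interferon during viral infection.

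The Yap deleted libraries (n = 5) came from mice of genotype Yapflox/flox SftpcCreert2, and their controls (n = 4) from Yapflox/flox mice without the Cre. The Yap active libraries (n = 6) came from Stk3flox/flox/Stk4flox/flox SftpcCreert2 mice, and their controls (n = 4) from Stk3flox/flox/Stk4flox/flox mice without the Cre. SftpcCreert2 is a tamoxifen-dependent recombinase driven from the surfactant protein C gene of AT2 cells, so other EPCAM+ cells in a sort need not be recombined, and every control carries floxed alleles too. Recombination was induced on postnatal day 3 and cells were taken on postnatal day 14 after beads had removed cells bearing CD31, CD271, CD90.2, CD45, Ter119 or CD16/32. Whether every library came from its own animal is not stated, so p-values measure the spread between these libraries, which may be technical. In such bulk samples fewer cells of a type and less RNA per cell cannot be told apart.

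Levels are CPM, a library's counts scaled to a common total, with each line's table scaled on its own. Libraries held 31947748 to 43544559 counts. AT2 markers summed to between 28903 and 141022 CPM per library, and endothelial markers, which the sort should remove, to between 225 and 3388 CPM.

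Part of the promoters hold the binding-site letters of these routes. Promoter windows from RefSeq (GRCm38.p6, 250 bases before to 50 after the start site) were found for 28 of the 37 genes. The core of the response element is GAAA, any 2 bases and GAAA again, or on the other strand TTTC, any 2 bases and TTTC. Counted by gene, with a match in any of its windows, it was in 11 of them (39.3%). That compares with 3.86% of the 16647 counted genes with a window, or 3.44% of all 32851 single windows. The gamma-activated site, TTCNNNGAA, which reads the same on both strands, was in 9 (32.1%), against 9.21% of those genes and 8.3% of all windows. Other genes with a window, Irf7, Irf9, Tap1 and Psmb9 among them, held neither. Matches may overlap one another, as the 3 in Isg15 do, and a match is a description of letters and no proof of a working site. The windows below are those of genes on which the results turn, each 30 bases on the gene's own strand with the matched letters in capitals and its first matched base counted from 0 at the start site. The first 6 hold a response element core and the last 3 a gamma-activated site.
Ifit1 at −104, chr19:34640775-34640804, plus strand: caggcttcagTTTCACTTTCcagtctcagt
Ifit1 at −85, chr19:34640794-34640823, plus strand: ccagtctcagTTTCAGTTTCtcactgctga
Ifit3 at −156, chr19:34583363-34583392, plus strand: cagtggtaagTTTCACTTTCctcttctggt
Ifit3 at −122, chr19:34583397-34583426, plus strand: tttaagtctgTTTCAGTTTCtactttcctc
Rsad2 at −120, chr12:26456553-26456582, minus strand: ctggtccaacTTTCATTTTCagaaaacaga
Isg15 at −72, chr4:156200871-156200900, minus strand: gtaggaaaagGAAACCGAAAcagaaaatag
Irf1 at −90, chr11:53769914-53769943, plus strand: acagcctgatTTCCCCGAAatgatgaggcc
Psmb8 at −97, chr17:34198088-34198117, plus strand: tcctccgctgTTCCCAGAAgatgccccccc
Samhd1 at −235, chr2:157135312-157135341, minus strand: acaccaccctTTCGGAGAAacacaagggcg

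Several libraries stood apart or ran against their labels, which bears on every comparison of these genes. Yap1 itself was at 78.3 to 142 CPM in Yap deleted libraries, against 215, 119, 168 and 187 CPM in controls 1 to 4. Yap deleted controls 1 and 2 held Pecam1, which encodes the CD31 antigen that the sort selected against, at 322 and 245 CPM, against 2.13 to 12.9 CPM in the other libraries of that table. Esr1, at which reads of the CreERT2 receptor part can be counted, ran against 3 labels: it was 1.97 CPM in the library labelled Yap active 1, 160.0 CPM in the library labelled Yap active control 2 and 87.1 CPM in the library labelled Yap deleted control 2. Columns of the Yap active table stand in 2 runs, one of Yap active 2 to 6 with control 4 and one of Yap active 1 with controls 1 to 3, so that group and run are largely the same split. In the Yap deleted table controls 1 and 2 likewise stand in a run of their own, after controls 3 and 4 and the Yap deleted libraries, so that the run and the content of these controls cannot be told apart. Names such as Yap deleted control 2 stand for the libraries so labelled. Libraries were kept in their labelled groups, and the results that rest on them are given with and without them.

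The interferon-stimulated programme was high in 4 of the 19 libraries and these did not follow the labelled genotypes, being 3 controls and 1 Yap active library. All 4 stand in the second run of columns of their table, and the part of the run in their levels was not tested. In Yap deleted control 1, 31 of the 37 genes lay above 2 times their median over the libraries of the table, and in Yap deleted control 2 it was 27 of 37. For all tested genes the shares above 2 times the median were 10.6% in control 1 and 12.6% in control 2. In the other table the library labelled Yap active 1 had 23 of 37 genes above 2 times the median (8.97% of all tested genes), and Yap active control 1 had 20 of 37 (9.26% of all tested genes). The remaining 15 libraries had between 0 and 6 such genes, with 6 in Yap active 3, 5 in the library labelled Yap active control 2, and 4 each in Yap deleted 4 and Yap deleted control 3.

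**Figure D1:**
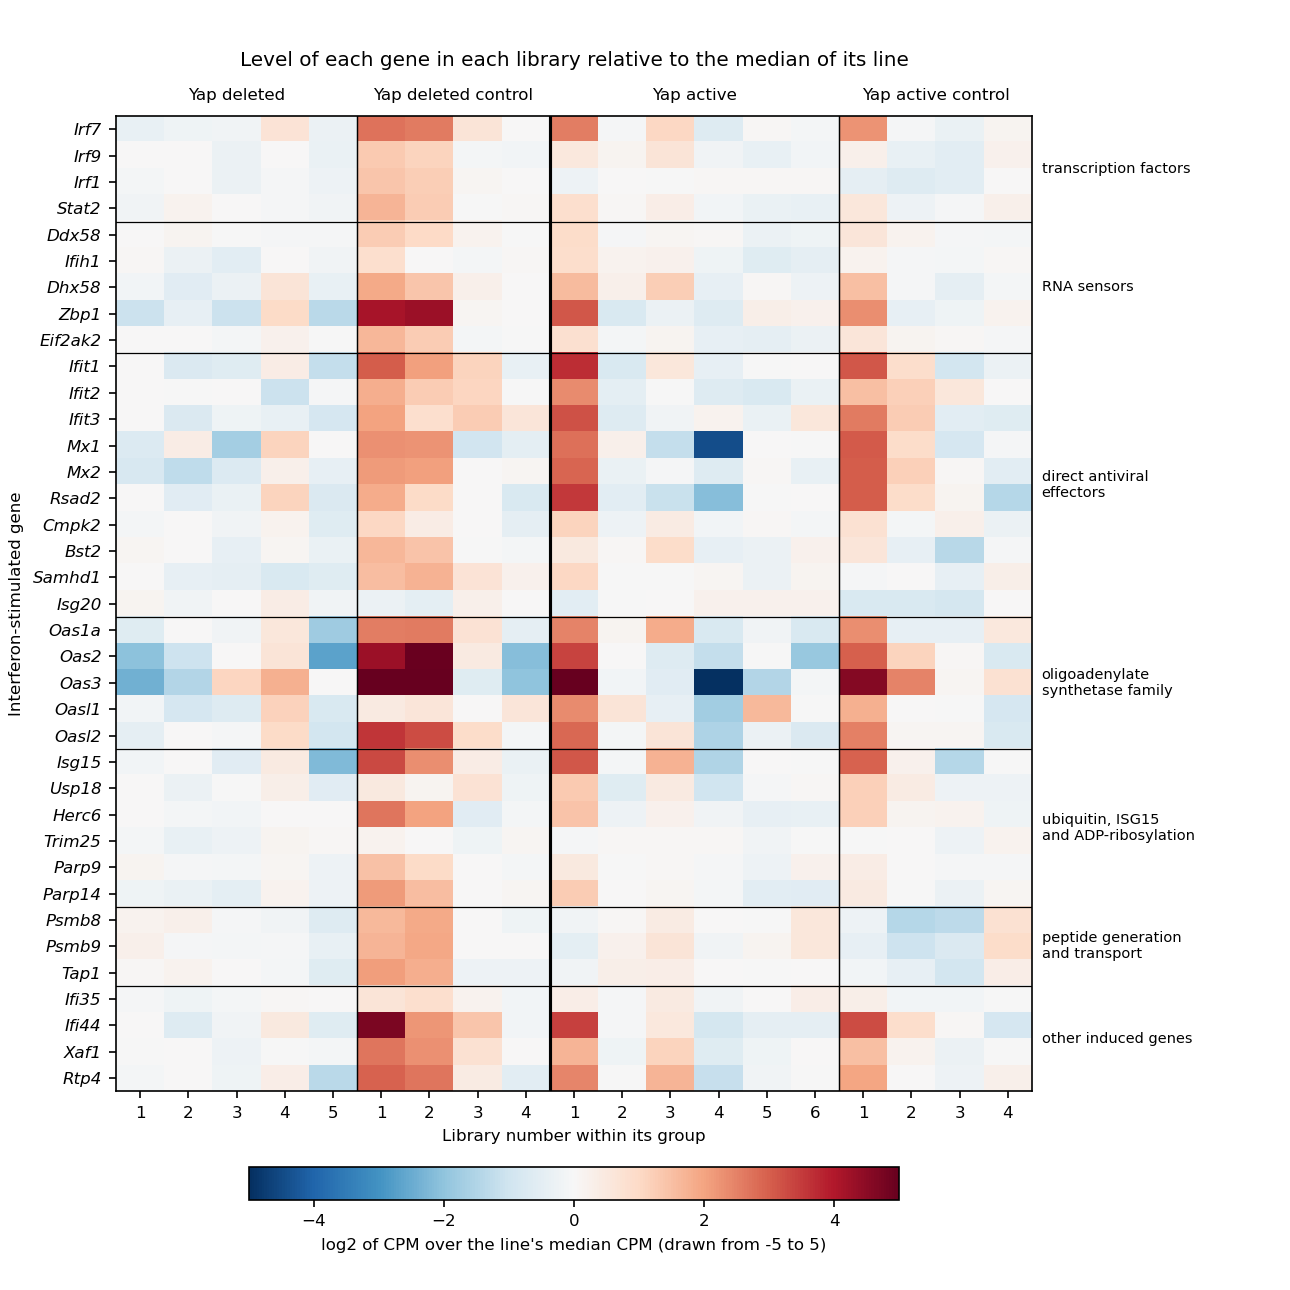
Heat map of the 37 genes (rows, by role) in the 19 libraries (columns), coloured by the log2 of CPM over the gene's median CPM in that line's table, drawn from −5 to 5. Yap deleted controls 1 and 2, the library labelled Yap active 1 and Yap active control 1 are red over most rows, and the genes of peptide generation and transport are red in the first pair only.

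The median gene of the 37 stood at 3.59 times its table's median in Yap deleted control 1 and at 2.94 times in control 2. It stood at 2.72 times in the library labelled Yap active 1 and at 2.29 times in Yap active control 1. Oas3, a synthetase of the 2′-5′ oligoadenylates that activate RNase L, had the highest ratio in each of these 4 libraries. Isg20, a 3′ exonuclease of RNA, had the lowest ratio in each, between 0.595 and 0.825. Yap deleted controls 1 and 2 were the 2 highest libraries of their table for 30 of the 37 genes, against 24.1% of tested genes. The library labelled Yap active 1 and Yap active control 1 were the 2 highest of theirs for 26 of 37, against 5.23% of tested genes.

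In the first comparison, Yap deleted against its controls, 36 of the 37 genes lay lower in Yap deleted cells, with a median log2 fold change of −1.31 against 0.01 over all 15818 genes tested. No gene of the 37 passed edgeR's quasi-likelihood test at an adjusted p under 0.05, where 1 gene in all passed (0.00632%). At an unadjusted p under 0.05, 29 of the 37 were lower and 0 higher, against 9.18% of tested genes lower. DESeq2 called 17 of the 37, all lower, against 3.58% of genes lower by the same rule, and limma-voom called 0 of the 37, with 20 lower at an unadjusted p under 0.05 (4.77% of genes lower by that test). Leaving out Yap deleted controls 1 and 2 brought the median to −0.21, with 29 genes lower and 8 higher, and 3 lower at an unadjusted p under 0.05 (3.71% of genes lower).

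Among the transcription factors, Irf7, the factor that amplifies type I interferon production, was at 6.54, 7.15, 7.38, 13.7 and 6.80 CPM in Yap deleted libraries, against 55.7, 50.4, 13.0 and 8.41 CPM in their controls. The Yap deleted values overlapped those of controls 3 and 4 and lay well below controls 1 and 2. The log2 fold change of Irf7 was −1.94 ± 0.55 (SE, edgeR adjusted p = 0.247) with all libraries and −0.40 ± 0.33 without controls 1 and 2 (adjusted p = 0.891). Irf1, which drives immunoproteasome and class I genes, was at 56.3, 60.8, 48.7, 57.2 and 49.7 CPM in Yap deleted libraries, against 159, 139, 64.9 and 59.9 CPM in controls. Its 5 Yap deleted values reached up to control 4 but stayed below control 3. Irf1 had a log2 fold change of −0.95 ± 0.29 (adjusted p = 0.247), Irf9, the DNA-binding partner of STAT2, of −0.79 ± 0.30 (adjusted p = 0.290), and Stat2 of −0.98 ± 0.34 (adjusted p = 0.264). Without controls 1 and 2 these 3 were at −0.23 ± 0.11, −0.03 ± 0.13 and −0.10 ± 0.11, none called.

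All 5 RNA sensors were lower with all libraries, 4 of them at an unadjusted p under 0.05. Zbp1, a sensor of left-handed nucleic acid that can trigger necroptosis, was at 0.610, 0.979, 0.615, 2.51 and 0.517 CPM in Yap deleted libraries, against 22.9, 25.1, 1.39 and 1.30 CPM in controls. Controls 1 and 2 held nearly all of its signal, and controls 3 and 4 lay within the Yap deleted range. Zbp1 had a log2 fold change of −3.60 ± 0.99 (adjusted p = 0.247), Ddx58, which encodes the cytoplasmic sensor RIG-I, of −0.71 ± 0.25 (adjusted p = 0.270), and Eif2ak2, the kinase PKR that halts translation, of −0.86 ± 0.35 (adjusted p = 0.306). Without controls 1 and 2 Zbp1 was at −0.40 ± 0.65 and Ddx58 at −0.12 ± 0.10, and Eif2ak2 turned to 0.07 ± 0.11.

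Among the antiviral effectors, Ifit3 lay below every control in each Yap deleted library. The Ifit genes encode proteins that bind foreign RNA and lie side by side on chromosome 19, Ifit3 at chr19:34583119-34588982 and Ifit1 at chr19:34640889-34650009 (GRCm38.p6). Ifit3 was at 17.9, 11.0, 15.4, 13.8 and 9.96 CPM in Yap deleted libraries, against 71.6, 31.9, 42.5 and 27.0 CPM in controls. Here controls 3 and 4, too, were above each Yap deleted library. The log2 fold change was −1.67 ± 0.30 (edgeR adjusted p = 0.212) with all libraries and −1.38 ± 0.27 without controls 1 and 2 (adjusted p = 0.371, unadjusted p = 0.000948). DESeq2 called Ifit3 lower in both settings (adjusted p = 0.000130 and 0.00176).

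Ifit3 has a near copy beside it, listed as I830012O16Rik and paired by RefSeq with the name Ifit3b, and the sources used here do not say how reads shared by both were counted. That copy was at 9.55, 4.29, 5.48, 6.34 and 3.99 CPM in Yap deleted libraries, against 29.4, 12.3, 19.7 and 10.7 CPM in controls. It, too, was below every control in each Yap deleted library (log2 fold change −1.60 ± 0.36, adjusted p = 0.247, and −1.39 ± 0.38 without controls 1 and 2, adjusted p = 0.577), so the pair cannot be told apart by these counts. Ifit1 was less clear: it was at 5.93, 3.61, 3.92, 7.78 and 2.61 CPM in Yap deleted libraries, against 48.4, 24.4, 12.8 and 4.57 CPM in controls. Its log2 fold change of −2.24 ± 0.60 (adjusted p = 0.247) became −0.89 ± 0.50 without controls 1 and 2.

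Samhd1, which depletes the nucleotides that retroviruses need, showed the same order as Ifit3. It was at 85.1, 63.6, 61.8, 50.1 and 56.5 CPM in Yap deleted libraries, against 246, 280.5, 136 and 98.2 CPM in controls. No Yap deleted library reached the lowest control. Samhd1 had a log2 fold change of −1.58 ± 0.31 (edgeR adjusted p = 0.247) with all libraries and of −0.92 ± 0.22 without controls 1 and 2 (adjusted p = 0.478, unadjusted p = 0.00320), and DESeq2 called it lower both times (adjusted p = 0.000359 and 0.0399). Leukocyte markers summed to between 48.0 and 130 CPM in Yap deleted libraries, against 126 and 187 CPM in controls 3 and 4, and their part in the Samhd1 difference was not tested.

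Of the 37 genes 3, Ifit3, Samhd1 and Xaf1, thus had every Yap deleted library below every control, against 1.25% of tested genes. The same 3 genes had every Yap deleted library below controls 3 and 4, against 4.71% of tested genes. Xaf1, an inhibitor of the caspase blocker XIAP, was at 4.52, 4.59, 3.82, 4.55 and 4.33 CPM in Yap deleted libraries, against 29.4, 22.4, 7.76 and 4.60 CPM in controls. Its margin over control 4 was thin, and its log2 fold change of −1.88 ± 0.48 (adjusted p = 0.247) became −0.54 ± 0.23 without controls 1 and 2 (unadjusted p = 0.0509).

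**Figure D2:**
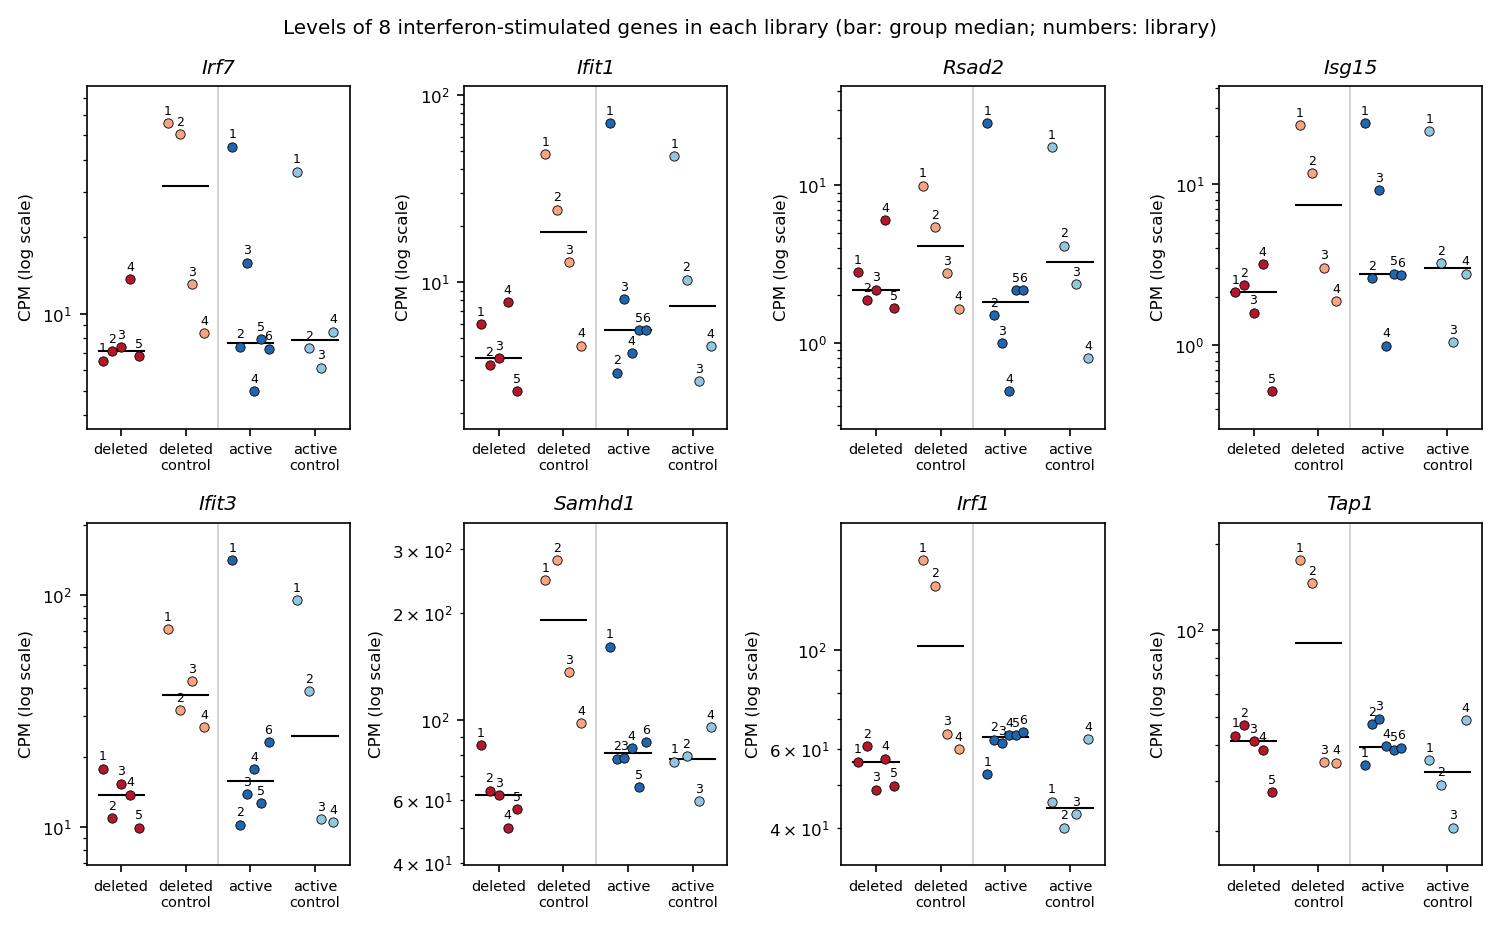
CPM (log scale) of 8 genes in each library, numbered within its group, with a bar at the group median, for Yap deleted, its controls, Yap active and its controls. Ifit3 and Samhd1 lay at 9.96 to 17.9 and 50.1 to 85.1 CPM in Yap deleted libraries, below all 4 controls, while Irf7, Ifit1, Rsad2 and Isg15 were set by the first library or libraries of the other groups.

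The other effectors depended on controls 1 and 2 in direction or size. Mx1, a GTPase that blocks orthomyxoviruses, was at 1.49, 3.08, 0.743, 5.14 and 2.38 CPM in Yap deleted libraries, against 11.6, 11.3, 1.22 and 1.68 CPM in controls. Its log2 fold change of −1.33 ± 0.77 (adjusted p = 0.423) turned to 0.79 ± 0.68 without controls 1 and 2. Rsad2, which encodes viperin, a maker of a chain-terminating nucleotide, was at 2.81, 1.86, 2.18, 6.04 and 1.66 CPM in Yap deleted libraries, against 9.95, 5.41, 2.77 and 1.65 CPM in controls. Yap deleted 4 exceeded 3 of the 4 controls for Rsad2, and the log2 fold change of −0.77 ± 0.57 (adjusted p = 0.517) turned to 0.36 ± 0.56 without controls 1 and 2. Bst2, which encodes tetherin, a protein that holds budding virions at the membrane, had a log2 fold change of −1.05 ± 0.37 (adjusted p = 0.271), and of −0.07 ± 0.18 without them.

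The oligoadenylate synthetase family had the lowest median of the roles, −2.56, and all 5 members were lower. Oas2 was at 0.269, 0.536, 1.10, 1.74 and 0.172 CPM in Yap deleted libraries, against 21.4, 33.9, 1.5 and 0.254 CPM in controls. Control 4 was among its lowest libraries, and the log2 fold change of −4.22 ± 1.25 (adjusted p = 0.247) became −0.24 ± 0.97 without controls 1 and 2. Oasl2, an interferon-induced relative that carries ubiquitin-like repeats, was at 7.37, 10.1, 9.84, 19.4 and 5.42 CPM in Yap deleted libraries, against 119.6, 98.4, 18.9 and 9.58 CPM in controls. Yap deleted 4 lay above controls 3 and 4. Oasl2 had a log2 fold change of −2.56 ± 0.72 (adjusted p = 0.247) with all libraries and of −0.48 ± 0.48 without controls 1 and 2.

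Isg15, the ubiquitin-like protein that is joined to newly made proteins, was at 2.12, 2.35, 1.59, 3.20 and 0.517 CPM in Yap deleted libraries, against 23.4, 11.8, 3.03 and 1.87 CPM in controls. Usp18, the protease that removes ISG15 and restrains the interferon receptor, was at 11.6, 9.60, 11.6, 14.3 and 7.86 CPM in Yap deleted libraries, against 16.2, 12.7, 18.97 and 10.1 CPM in controls. Usp18 was thus the only member for which control 3, and neither control 1 nor 2, was highest. Isg15 had a log2 fold change of −2.35 ± 0.76 (adjusted p = 0.255), Usp18 of −0.40 ± 0.23 (adjusted p = 0.421) and Parp14, an ADP-ribosyltransferase, of −1.44 ± 0.42 (adjusted p = 0.247). Without controls 1 and 2 they were at −0.36 ± 0.59, −0.43 ± 0.30 and −0.28 ± 0.17, so that Usp18 alone of these 3 kept its size.

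Peptide generation and transport genes sit together on chromosome 17 within the class I and II region, Psmb9 at chr17:34182030-34187330, Tap1 at chr17:34187556-34197225 and Psmb8 at chr17:34198195-34201454 (GRCm38.p6). Tap1, one chain of the peptide transporter, was at 43.0, 46.7, 41.2, 38.4 and 27.3 CPM in Yap deleted libraries, against 176, 146, 34.7 and 34.6 CPM in controls. Psmb8, an immunoproteasome subunit, was at 22.1, 23.5, 18.8, 17.6 and 12.7 CPM in Yap deleted libraries, against 60.3, 74.5, 19.8 and 17.0 CPM in controls. For both, controls 3 and 4 lay inside the Yap deleted range. Tap1 had a log2 fold change of −1.31 ± 0.49 (adjusted p = 0.281) and Psmb8 of −1.18 ± 0.44 (adjusted p = 0.280), and without controls 1 and 2 they turned to 0.15 ± 0.20 and 0.01 ± 0.23.

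Of the other induced genes, Rtp4, a chaperone of membrane receptors that also binds viral RNA, was at 7.11, 7.62, 6.59, 9.70 and 2.99 CPM in Yap deleted libraries, against 59.2, 48.8, 10.1 and 5.30 CPM in controls. Its log2 fold change of −2.18 ± 0.67 (adjusted p = 0.248) became −0.21 ± 0.43 without controls 1 and 2. The 15 members not named so far with a fold change ranged from −4.94 for Oas3 to 0.15 for Isg20 with all libraries. These named ends were chosen after their values were seen, and Isg20 was the 1 member above 0.

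**Figure D3:**
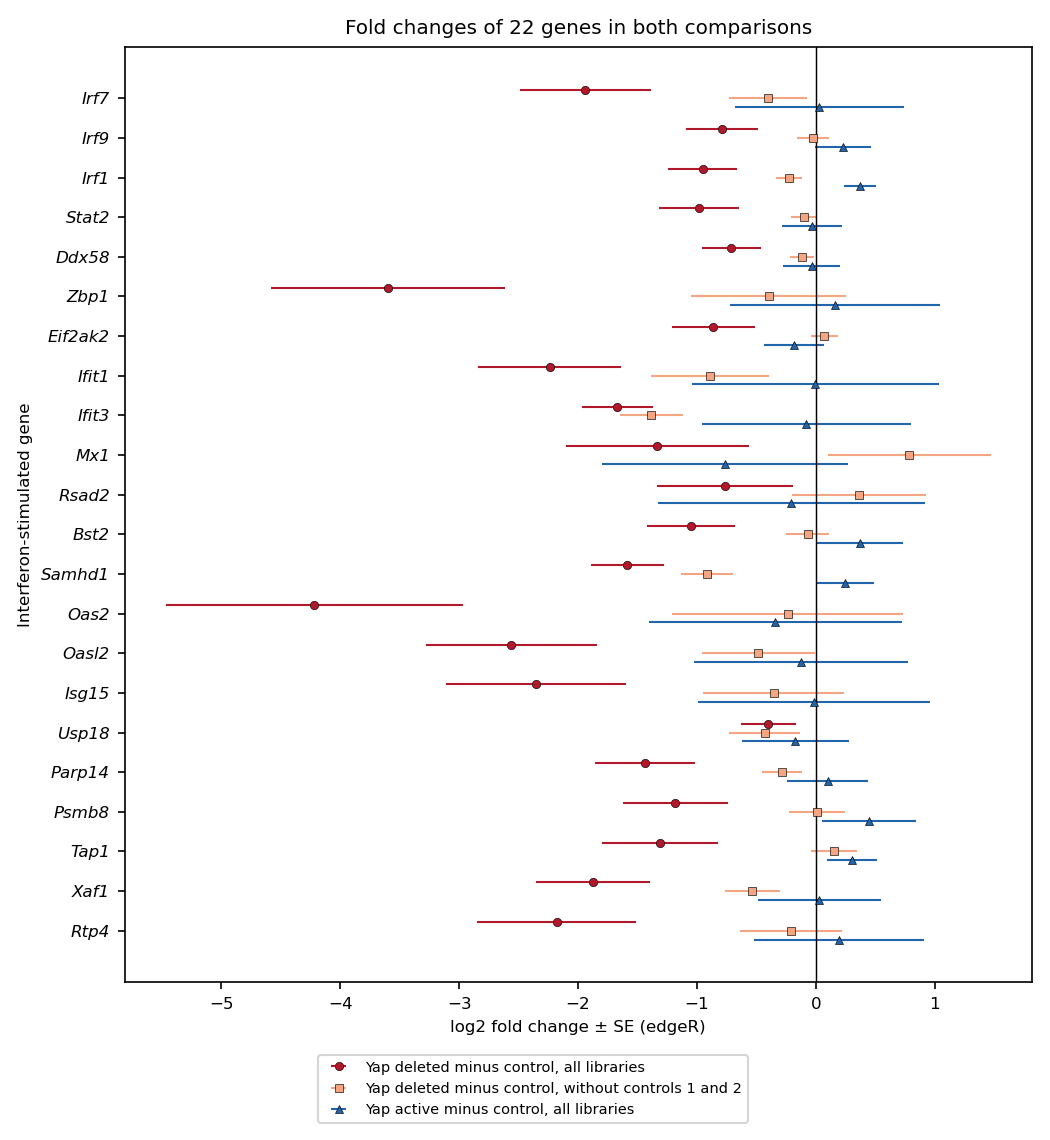
Log2 fold changes ± SE by edgeR for 22 genes, for Yap deleted minus control with all libraries (circles), the same without controls 1 and 2 (squares) and Yap active minus control with all libraries (triangles). All 22 circles lie below 0, the squares range from −1.38 for Ifit3 to 0.79 for Mx1, and the triangles lie between −0.76 and 0.44.

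In the second comparison, Yap active against its controls, edgeR called 0 of 15685 genes (0%) and so none of the 36 members tested; Oas3 did not pass the filter on low counts. The median log2 fold change of the 36 was 0.03, with 21 higher and 15 lower. Irf1 and Isg20 were the 2 genes higher at an unadjusted p under 0.05, against 6.65% of tested genes, and 0 were lower. DESeq2 called 0 of the members and 11 genes. In contrast, limma-voom with sample weights called 8845 of the 15685 genes and 8 of the 36 members. By that fit members were thus called less often than genes at large. No member had every Yap active library above every control, against 0.465% of tested genes.

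The library labelled Yap active 1 and Yap active control 1 carried most of the signal on either side of this comparison. Ifit3 was at 142, 10.2, 13.8, 17.8, 12.7 and 23.3 CPM in Yap active libraries 1 to 6, against 95.1, 38.6, 10.8 and 10.5 CPM in controls 1 to 4. Rsad2 was at 24.7, 1.51, 0.998, 0.495, 2.16 and 2.16 CPM in Yap active libraries, against 17.5, 4.14, 2.35 and 0.799 CPM in controls. In both genes each group had 1 library far above its others. The log2 fold changes were −0.08 ± 0.88 for Ifit3 (adjusted p = 0.964) and −0.21 ± 1.12 for Rsad2 (adjusted p = 0.921).

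Irf7 was at 45.1, 7.44, 15.9, 4.98, 7.96 and 7.29 CPM in Yap active libraries, against 36.0, 7.33, 6.15 and 8.51 CPM in controls. Isg15 was at 23.9, 2.60, 9.18, 0.990, 2.78 and 2.72 CPM in Yap active libraries, against 21.4, 3.22, 1.04 and 2.78 CPM in controls. Yap active 3 was the next highest library after the pair for both genes, and it also held Rtp4 at 21.9 CPM and Xaf1 at 9.62 CPM. Irf7 had a log2 fold change of 0.03 ± 0.71 (adjusted p = 0.986), Isg15 of −0.01 ± 0.97 (adjusted p = 0.995), Rtp4 of 0.19 ± 0.72 (adjusted p = 0.883) and Xaf1 of 0.03 ± 0.52 (adjusted p = 0.980). Log2 fold changes of the other named genes ran from −0.76 ± 1.04 for Mx1 (adjusted p = 0.661) to 0.44 ± 0.39 for Psmb8 (adjusted p = 0.508).

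The direction for the members as a whole rested on those libraries. Without the library labelled Yap active 1 the median was −0.33, without Yap active control 1 it was 0.49, and without both it was 0.02. Without the libraries labelled Yap active 1 and Yap active control 2 it was −0.39, with 8 members lower and 2 higher at an unadjusted p under 0.05, where 15.7% of all genes were lower and 13.6% higher. There edgeR called 13 genes, none of them members. With the run of columns as a covariate, chosen after the data were seen, it was 0.43 and 34 of 36 members were higher, none called.

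Irf1 and Isg20, the 2 members with a small unadjusted p, followed the runs of columns. Irf1 was at 52.8, 63.0, 61.8, 64.3, 64.5 and 65.4 CPM in Yap active libraries 1 to 6, against 45.8, 40.1, 43.0 and 63.1 CPM in controls 1 to 4. Within the first run Yap active 2 to 6 lay at 61.8 to 65.4 CPM around control 4 at 63.1 CPM, and within the second the library labelled Yap active 1 at 52.8 CPM lay above controls 1 to 3. Its log2 fold change of 0.37 ± 0.14 (adjusted p = 0.366) was 0.15 with the run as a covariate. Isg20 was at 23.7, 33.3, 34.7, 39.0, 39.0 and 38.9 CPM in Yap active libraries, against 20.1, 19.8, 18.3 and 34.3 CPM in controls, and its log2 fold change of 0.59 ± 0.21 (adjusted p = 0.366) was 0.19 with the covariate.

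The genes that were raised differed in part between the high libraries of each table. Tap1, Psmb8 and Irf1 were at 4.26, 3.05 and 2.65 times their table's median in Yap deleted control 1, and at 0.91, 0.83 and 0.73 times in Yap active control 1. Ifit3 and Rsad2 stood the other way, at 4.01 and 3.59 times in Yap deleted control 1 and at 6.02 and 8.09 times in Yap active control 1. All 3 genes of peptide generation and transport lay above 2 times the median in both Yap deleted controls 1 and 2, and 0 of 3 did in the library labelled Yap active 1 or in Yap active control 1. All 5 of the oligoadenylate synthetase family lay above 2 times the median in each of that second pair. Oas1a, Oas2, Oas3 and Oasl2 did so in both Yap deleted controls 1 and 2 as well, where Oasl1 was at 1.38 and 1.51 times.

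**Figure D4:**
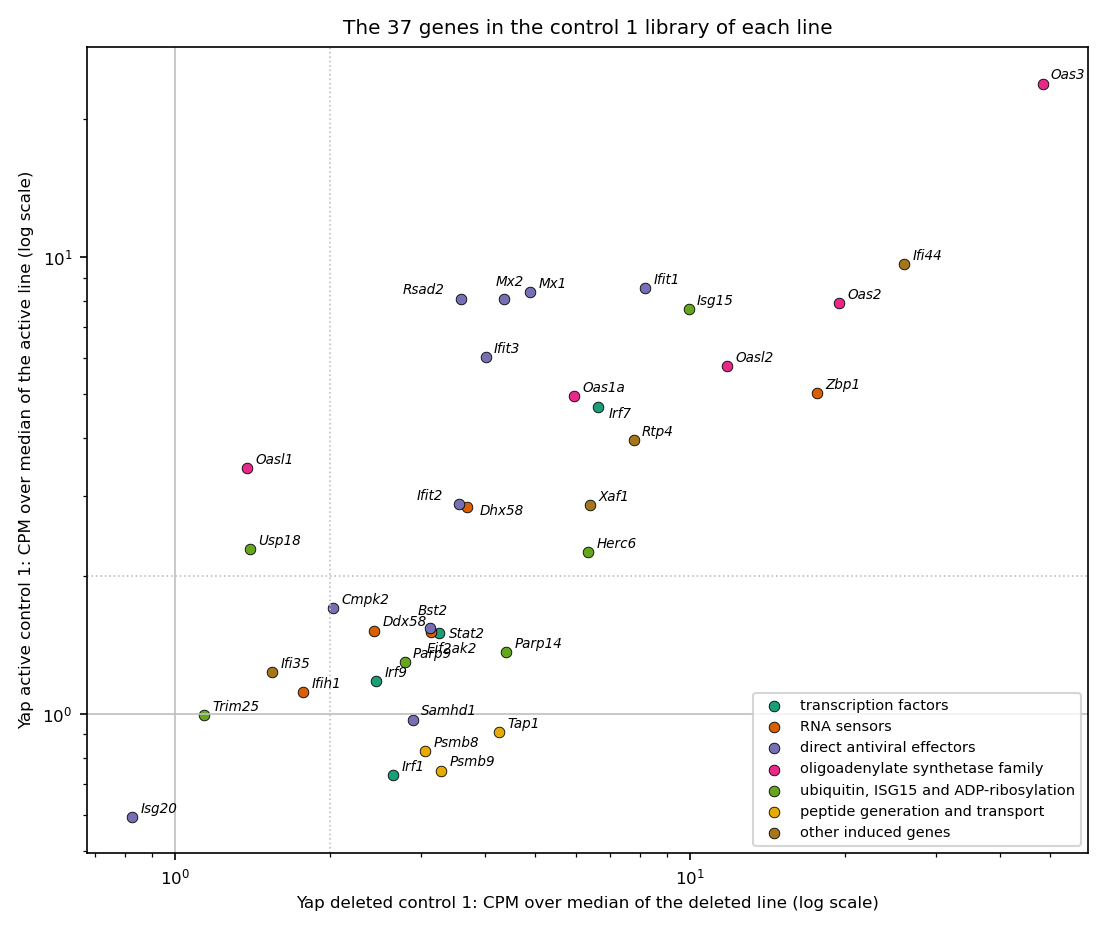
Each of the 37 genes by its CPM over the line's median in Yap deleted control 1 (x axis, log scale) and in Yap active control 1 (y axis, log scale), coloured by role, with solid lines at 1 and dotted lines at 2. Tap1, Psmb8, Psmb9, Irf1 and Samhd1 lie right of 2 but below 1 on the y axis, while Rsad2, Ifit3, Mx1 and Mx2 lie above 6 on it.

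Promoter letters differed along the same split, which was drawn from the levels and so carries no test. Among the 17 genes with a promoter window whose 2 highest Yap active table libraries were the pair, 9 held a response element core (52.9%) and 3 a gamma-activated site (17.6%). Among the 11 others, 2 held a response element core (18.2%) and 6 a gamma-activated site (54.5%). The windows of Ifit1, Ifit3, Rsad2 and Isg15 printed above belong to the first kind and those of Irf1, Psmb8 and Samhd1 to the second. Other genes cut across the split. Ifih1 and Bst2 of the second kind held a response element core, and Eif2ak2, Ifit2 and Oas1a of the first a gamma-activated site. Ifit1, with 2 response element cores, was at 70.5 CPM in the library labelled Yap active 1 and 47.2 CPM in Yap active control 1, against 2.95 to 10.3 CPM in the other 8 libraries of that table.

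Interferon-inducible genes outside the 37 were taken from fixed lists, whose choice was made with earlier results of these data known. All 12 guanylate-binding and immunity-related GTPases, effectors against intracellular pathogens, were lower in Yap deleted cells (median −2.74, 12 at an unadjusted p under 0.05, 0 called by edgeR). Gbp9 at −4.22 ± 1.16, Gbp5 at −3.996 ± 1.12, Gbp7 at −3.44 ± 1.05 and Igtp at −2.65 ± 0.80 led them (adjusted p = 0.247 each), and without controls 1 and 2 these were at 0.23 ± 0.50, 0.075 ± 0.53, 0.61 ± 0.35 and 0.19 ± 0.19. Their summed level was 98.5 to 158 CPM in Yap deleted libraries, against 1943, 808, 89.0 and 89.9 CPM in controls. Without controls 1 and 2 all 12 lay higher in Yap deleted cells, with a median of 0.37 and 0 at an unadjusted p under 0.05. In the Yap active table the sum was 373 CPM in the library labelled Yap active 1 and 82.2 to 127 CPM in Yap active 2 to 6, against 324 CPM in control 1 and 125 to 164 CPM in controls 2 to 4, and 2 of 12 were higher and 10 lower (median −0.49).

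Of 12 class I antigen presentation genes, 10 were lower in Yap deleted cells (median −0.56, 5 lower and 1 higher at an unadjusted p under 0.05, 0 called). Nlrc5, the transactivator of class I genes, had a log2 fold change of −4.17 ± 1.31 (adjusted p = 0.248), Tap2 of −0.61 ± 0.23 (adjusted p = 0.281), H2-Q4 of −1.04 ± 0.41 (adjusted p = 0.299) and B2m of −1.37 ± 0.55 (adjusted p = 0.304). Nlrc5 was at 0.344 to 2.67 CPM in Yap deleted libraries, against 56.0, 40.8, 0.453 and 1.17 CPM in controls, so controls 3 and 4 lay inside the Yap deleted range. With those first 2 controls left out, Nlrc5 was at 0.71 ± 0.91, Tap2 at −0.08 ± 0.10, H2-Q4 at −0.06 ± 0.30 and B2m at 0.26 ± 0.24, and the list had 8 genes higher and 4 lower (median 0.12, 0 at an unadjusted p under 0.05).

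Of 30 further interferon-induced genes, 28 passed the filter and 24 were lower (median −0.70, 14 lower at an unadjusted p under 0.05, 0 called), among them Ifi203 at −5.22 ± 1.32, Ddx60 at −2.63 ± 0.71, Sp100 at −2.47 ± 0.62 and Uba7 at −0.81 ± 0.22 (adjusted p = 0.247 each). Ifi203 was at 0.195 to 0.769 CPM in Yap deleted libraries, against 43.5, 44.9, 0.226 and 1.11 CPM in controls. Leaving out controls 1 and 2, Ifi203 was at −0.19 ± 0.70, Ddx60 at −0.60 ± 0.49, Sp100 at −0.54 ± 0.31 and Uba7 at −0.37 ± 0.15, and 20 of the 28 genes were lower (median −0.05, 2 at an unadjusted p under 0.05). In Yap active cells 5 of the 12 class I genes were higher (median −0.02) and 17 of the 28 further genes (median 0.05), none called.

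Receptor and signalling genes had a median nearer 0 than the 37 genes. Of 10 such genes, 9 were lower in Yap deleted cells with a median of −0.19, and 1 was lower at an unadjusted p under 0.05. Without controls 1 and 2 the median was 0.04. In Yap active cells the list split 5 higher to 5 lower (median 0.03), and edgeR called none of the 10 in either line.

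Among 13 further genes of nucleic acid sensing, 9 were lower in Yap deleted cells (median −0.45, 5 lower and 1 higher at an unadjusted p under 0.05), led by Irf5 at −2.11 ± 0.72, Tlr3 at −0.86 ± 0.31, Tlr9 at −2.70 ± 1.01 and Tlr7 at −2.11 ± 0.84 (adjusted p = 0.264 to 0.303). In the fit without controls 1 and 2 these 4 were at −0.53 ± 0.60, −0.19 ± 0.19, −0.27 ± 0.97 and −0.64 ± 0.89, and the list's median was −0.10 (10 lower, 1 higher at an unadjusted p under 0.05). Of 9 negative regulators, 6 were lower (median −0.23, 3 at an unadjusted p under 0.05), with Irf2 at −0.35 ± 0.12, Nlrc3 at −1.31 ± 0.52 and Ptpn6 at −0.74 ± 0.30. In the same reduced fit those 3 were at −0.20 ± 0.10, −0.28 ± 0.51 and −0.22 ± 0.15, and the median was −0.16 (5 lower, 1 at an unadjusted p under 0.05). In Yap active cells the 2 lists had medians of −0.20 and 0.04, and edgeR called no gene of either list in either line.

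Interferon transcripts themselves were close to absent. None of 9 ligand genes passed the filter, and Ifnb1 had 0 counts in every library. Ifng, the interferon of T and natural killer cells, had 12 counts in Yap deleted control 1 and 42 in control 2, and between 0 and 2 in each of the other 17 libraries. The library labelled Yap active 1 had 0 Ifng counts and Yap active control 1 had 2.

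Markers of other cells were high in the same controls of the Yap deleted table. The 15 endothelial markers summed to 233 to 331 CPM in Yap deleted libraries, against 3388, 2723, 327 and 328 CPM in controls 1 to 4, with no marker at 0 in every library. Of these markers, 15 were lower in Yap deleted cells (median −3.90, 14 at an unadjusted p under 0.05, 0 called), and 13 were lower without controls 1 and 2 (median −0.47, 1 at an unadjusted p under 0.05). Leukocyte markers, 14 of 15 with a row, summed to 48.0 to 130 CPM in Yap deleted libraries, against 291, 1299, 126 and 187 CPM in controls, and the 13 tested were lower (median −3.34), as were 12 without controls 1 and 2 (median −0.72). The part of these cells in the lower levels of the 37 genes was not tested, and the genotype and the content of controls 1 and 2 cannot be told apart within the fit of all libraries.

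In the Yap active table endothelial markers summed to 360 CPM in the library labelled Yap active 1 and 225 to 327 CPM in Yap active 2 to 6, against 400.5, 229, 620 and 272 CPM in controls 1 to 4. Control 3, the library with the most endothelial marker signal there, had 0 of the 37 genes above 2 times the median and 27 below 1. Pecam1 was at 14.6 CPM in the library labelled Yap active 1 and 0.791 to 1.71 CPM in Yap active 2 to 6. Controls 1 to 4 held it at 19.6, 4.66, 41.6 and 0.937 CPM. Esam ran the other way, at 95.9 CPM in the library labelled Yap active 1 and 167 to 181 CPM in Yap active 2 to 6. It weighs heavily in the sums, which thus show little of the rise of markers such as Pecam1 and Cdh5. Egfl7 and Eng in the library labelled Yap active 1 lay within the range of Yap active 2 to 6. Leukocyte markers summed to 111 CPM in the library labelled Yap active 1 and 31.6 to 63.9 CPM in Yap active 2 to 6, against 42.1 CPM in control 1 and 49.2 to 62.8 CPM in controls 2 to 4. Of 14 endothelial markers tested 13 were lower in Yap active cells (median −1.56), as were 9 of 12 leukocyte markers (median −0.24).

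**Figure D5:**
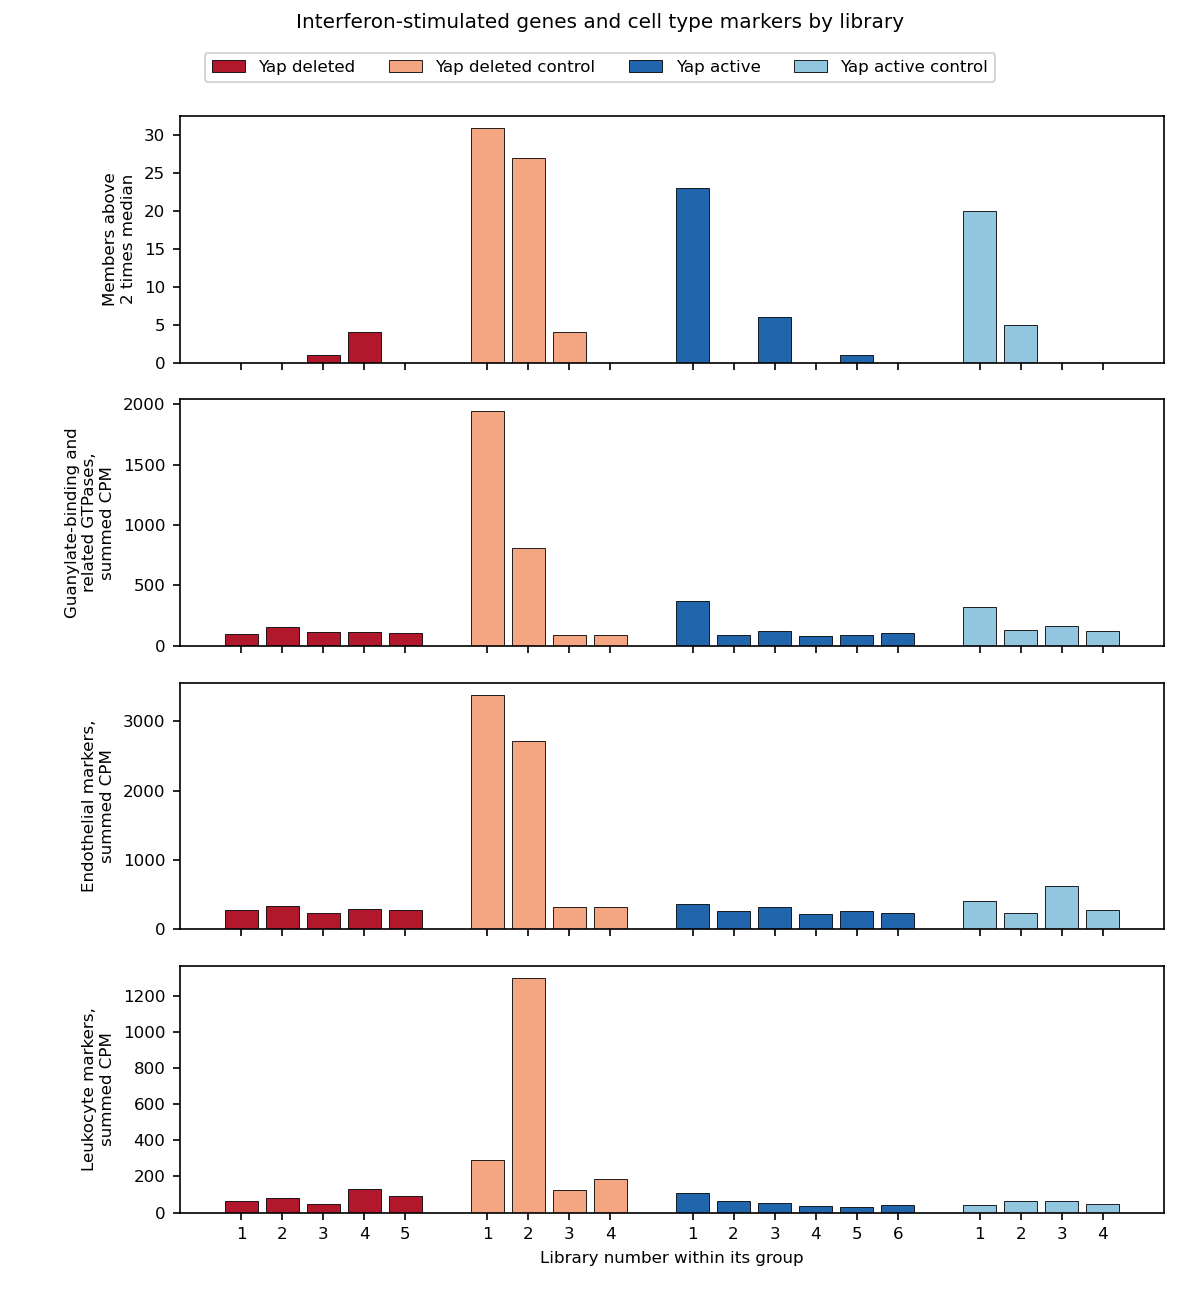
For each library, from top to bottom, the number of the 37 genes above 2 times their table's median, the summed CPM of 12 guanylate-binding and immunity-related GTPases, of endothelial markers and of leukocyte markers, with libraries grouped as Yap deleted, its controls, Yap active and its controls. Yap deleted controls 1 and 2 are high in all panels. Yap active control 3 has the highest endothelial sum of its line and 0 of the 37 genes above 2 times the median.

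AT2 marker sums were lowest in the libraries with the raised genes, while the lowest AT1 marker sum of each line lay in another library. AT2 markers summed to 49322 to 79543 CPM in Yap deleted libraries, against 32024, 28903, 59476 and 99129 CPM in controls, and 9 of 10 were higher in Yap deleted cells (median 0.61, 4 at an unadjusted p under 0.05). In the Yap active table they summed to 42538 CPM in the library labelled Yap active 1 and 86425 to 117429 CPM in Yap active 2 to 6, against 45161, 63906, 53274 and 141022 CPM in controls, and 10 of 10 were higher (median 0.37). The AT2 median in Yap deleted cells was 0.22 without controls 1 and 2, with 9 of 10 higher. AT1 markers summed to 3421 to 9131 CPM in Yap deleted libraries, against 4627, 3730, 13546 and 7275 CPM in controls. They summed to 6655 to 9362 CPM in Yap active libraries, with 8712 CPM in the library labelled Yap active 1, against 3471 to 9370 CPM in controls. Yap active control 1 lay below every Yap active library for Ager, Aqp5, Gprc5a and Emp2, and within their range for the other AT1 markers. The median log2 fold change of the AT1 markers was −0.61 in Yap deleted cells (−1.14 without controls 1 and 2, 10 of 10 lower, 6 at an unadjusted p under 0.05). It was 0.16 in Yap active cells. Fibroblast markers had medians of −0.27 in Yap deleted cells (0.36 without controls 1 and 2) and −0.72 in Yap active cells, and pan-epithelial markers 0.29 (−0.21 without) and 0.36, with no gene of these lists called by edgeR. Xist was at 756 CPM in the library labelled Yap active 1, against 2.04 CPM in Yap active control 1, so the raised pair was not of one sex.

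The change in Yap deleted cells was set against that in Yap active cells by a test of the difference between both log2 fold changes. All 37 genes had a lower change in Yap deleted cells, with a median difference of −1.42 against −0.02 over all 16308 genes tested, but edgeR called 0 members and 0 genes (0%). At an unadjusted p under 0.05, 15 of the 37 had a lower change, against 4.56% of genes. Samhd1 differed by −1.83 ± 0.41 (adjusted p = 0.626) and Irf1 by −1.32 ± 0.31 (adjusted p = 0.676). Without Yap deleted controls 1 and 2 the median difference was −0.33 with 28 genes lower and 9 higher, and 3 were lower at an unadjusted p under 0.05 (4.76% of genes). Calls by DESeq2 and limma-voom with all libraries are given in the closing section, beside the genes that each called in all.

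The authors' lists of accessible chromatin regions touched few of the genes. Within 50 kb of a start site, 4 of the 37 genes (10.8%) had a region opened in Yap active cells, against 17.2% of gene rows, and 1 (2.7%) had a closed region, against 3.84%. The opened regions lay at the promoters of Cmpk2 (chr12:26468648-26469982), Ifi44 (chr3:151749477-151750257) and Usp18 (chr6:121245260-121246339) and 35.4 kb from Irf1, in mm10 coordinates. The edgeR fit of Yap active cells called no gene at all, and so none of these 4. Cmpk2 had a log2 fold change of 0.04 ± 0.30, Ifi44 of −0.37 ± 1.02 and Usp18 of −0.17 ± 0.45 (adjusted p = 0.941, 0.833 and 0.826). Irf1, whose values are given above, was higher at an unadjusted p under 0.05. The closed region lay in intron 2 of 15 of Oas3 (chr5:120772984-120773484). In Yap deleted cells 1 gene had an opened region (2.7% against 1.45%), Ifih1, in intron 1 of 14 (chr2:62643953-62644485), and 0 had a closed one.

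Promoter windows of the 28 genes overlapped the authors' broad peaks of Yap active cells in 19 cases in one list (67.9%, against 44.4% of genes with a window) and in 9 in another (32.1% against 22.4%). For Yap active controls the counts were 1 (3.57% against 5.25%) and 3 (10.7% against 5.03%), Ifit1, Ifit3 and Ifi35 in the second. The lists hold 61739, 53714, 345109 and 28418 peaks, so shares were not compared between them. Ifit1 and Ifit3, whose response element windows are printed above, had a peak in the first Yap active list and in the second control list.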

How the data were processed

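RNA-seq read counts per gene were deposited by the authors as 2 tables, 1 for each line. Trim Galore, Bowtie2, Cufflinks, DESeq and HOMER and build mm10 are named, without versions or roles, per the submitters' processing notes, and the counting program and strand are not given in the sources used here. Every sample column had a label (0 were set aside). Region lists deposited by the authors give a score per region with HOMER annotation, per the file headers, and were used for position and rank only. The deposited peak lists have the layout of MACS broad peaks, in which the authors give fold enrichment as a ratio and −log10 p, and only positions were used.

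The members and lists were chosen with earlier results of these data known. Genes named with a fold change were set by rule: 22 members over all roles, and up to 4 genes per other list with the smallest p in the Yap deleted comparison. Within each table counts were tested with edgeR 4.0.16 after TMM scaling and the filterByExpr filter (robust quasi-likelihood, two-sided, Benjamini-Hochberg adjustment over all genes, called at an adjusted p under 0.05) in R 4.3.3. SE is the log2 fold change over the root of F. The difference between lines was tested in one model of both tables. DESeq2 1.42.0 and limma 3.58.1 (voom with sample weights) were alternatives, as were RLE scaling, no filter, each library left out and a replicate block. Libraries held 31947748 to 43544559 counts, and replicates differed by more than counting noise (chi-square per gene of at least 50.6). Scripts were tested on simulated data. Motifs were searched in RefSeq promoter windows, and peaks were overlapped by at least 1 bp with bedtools 2.31.1. Genes outside the rule that are named were chosen after their values were seen. One gene of the receptor and signalling list is not reported here by name.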

Additional observations from a re-analysis of the deposited data

Results flagged for a closer look

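A library was picked out where its gap to the next library, as a share of its group's range, passed Dixon's 95% value. Where 2 libraries of a group are high together, as Yap deleted controls 1 and 2 were, the rule can seldom flag either. Over 148 gene-and-group checks, of which chance alone would pick out about 1 in 20, 19 flags fell on the library labelled Yap active 1, 13 on Yap active control 1, 6 on Yap deleted 4, 2 on Yap deleted control 1 and 1 on Yap active control 4.

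The library labelled Yap active 1 stood above the other Yap active libraries for 18 genes. Its levels in CPM were 45.1 for Irf7, 69.9 for Ddx58, 9.8 for Zbp1, 70.5 for Ifit1, 75.4 for Ifit2, 142 for Ifit3, 8.46 for Mx1, 4.16 for Mx2 and 24.7 for Rsad2. They were 39.6 for Cmpk2, 161 for Samhd1, 9.71 for Oas2, 5.44 for Oas3, 76.1 for Oasl2, 23.9 for Isg15, 15.5 for Herc6, 91.9 for Parp14 and 21.2 for Ifi44. It stood below the other Yap active libraries for Irf1, at 52.8 CPM.

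Yap active control 1 stood above the other controls of its line for 13 genes. Its levels in CPM were 36.0 for Irf7, 8.19 for Dhx58, 5.75 for Zbp1, 47.2 for Ifit1, 10.6 for Mx1, 7.43 for Oas1a and 2.68 for Oasl1. They were 59.4 for Oasl2, 21.4 for Isg15, 36.1 for Parp9, 19.1 for Ifi44, 12.8 for Xaf1 and 26.8 for Rtp4.

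Yap deleted 4 stood above the other Yap deleted libraries at 13.7 CPM for Irf7, 6.19 for Dhx58, 2.51 for Zbp1, 6.04 for Rsad2 and 6.37 for Oasl1, and below them at 7.19 CPM for Ifit2. Yap deleted control 1 stood above the other controls of its line at 52.1 CPM for Ifih1 and 34.3 CPM for Ifi44. Yap active control 4 stood above the others of its group at 34.3 CPM for Isg20.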

How the results depend on the processing

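In Yap deleted against control, edgeR's 0 called members held under RLE scaling, no filter, limma-voom, the replicate block and each library left out, and the members' median stayed at −1.61 to −0.95 when single libraries were left out, while genes called ran from 0 to 4. DESeq2 called 871 genes and 17 members, and limma-voom and the replicate block called 0 genes. Without controls 1 and 2 the median was −0.21 (edgeR and DESeq2), and DESeq2 called 134 genes and 2 members. There Eif2ak2 turned to 0.071 (0.075 with DESeq2), Mx1 to 0.79, Rsad2 to 0.36 (0.37), Psmb8 to 0.0086 (0.011) and Tap1 to 0.15. The cause was not tested.

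In Yap active against control, limma-voom called 8845 of 15685 genes and 8 members. DESeq2 called 11 genes there, and edgeR 13 without the libraries labelled Yap active 1 and control 2. When single libraries were left out, 0 to 2 genes were called and the median ran from −0.33 to 0.49. For the difference between lines DESeq2 called 17 genes and 1 member, and limma-voom 21 of 16308 genes and 2 members. Single libraries left out gave 0 to 3 genes. Yap active changes near 0 turned direction under several settings, and the cause was not tested. With the run of columns as a covariate they were 0.16 for Stat2, 0.32 for Ddx58, 0.17 for Eif2ak2, 1.004 for Ifit1, 1.05 for Ifit3, 0.27 for Mx1, 1.28 for Rsad2, 0.90 for Oas2, 0.998 for Oasl2, 0.93 for Isg15 and 0.43 for Usp18. By limma-voom they were −0.51 for Irf7, −0.88 for Zbp1, −0.20 for Parp14, −0.39 for Xaf1 and −0.45 for Rtp4. Without Yap active 1 and control 2 they were −0.96 for Irf7, −1.40 for Zbp1, −0.31 for Parp14, −0.48 for Xaf1 and −0.62 for Rtp4. Without Yap active 1 and control 1 they were −0.029 for Zbp1, 0.66 for Isg15 and −0.12 for Parp14.

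The shared replicate numbers were not taken to pair the samples, since not every same-numbered pair had a correlation over 0.1: it was −0.255, 0.445, 0.259 and 0.29 for Yap deleted pairs 1 to 4 and 0.523, 0.00905, 0.0512 and 0.494 for Yap active pairs 1 to 4. With the replicate block the Yap deleted median was −0.99 and the Yap active median 0.12, no member was called, and Stat2 (0.15), Ddx58 (0.10), Zbp1 (−0.087), Ifit1 (0.091), Oasl2 (0.0018) and Isg15 (0.29) turned in the Yap active line. With single libraries left out, Yap active changes ranged from −0.26 to 0.14 for Ddx58, −1.62 to 1.45 for Ifit1, −1.32 to 0.88 for Ifit3, −0.74 to 1.01 for Irf7, −0.97 to 1.59 for Isg15, −2.004 to 0.61 for Mx1, −2.13 to 0.87 for Oas2, −1.32 to 1.10 for Oasl2, −0.28 to 0.24 for Parp14, −2.09 to 1.14 for Rsad2, −0.43 to 0.98 for Rtp4, −0.23 to 0.14 for Stat2, −0.55 to 0.24 for Usp18, −0.38 to 0.60 for Xaf1 and −1.13 to 1.25 for Zbp1. At these depths Oas3, at 0 to 8 counts in 7 of the 10 Yap active table libraries, was too sparse to test there.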
